A study of Mus musculus with 2 samples.

Results

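The collagen chain genes are the genes whose symbol has the form Col, a type number, a and a chain number. All such genes with a probe set assigned to 1 gene symbol were taken, which gave 42 genes and 82 probe sets among 18194 genes on the array. RNA was measured in mouse embryonic fibroblasts (MEFs), connective tissue cells grown out of dissociated embryos, with 1 array from Malat1 knock-out cells and 1 from wildtype cells. Both groups were C57BL/6, came from embryos at day 13.5, were kept untreated for 2 weeks and differ in the labels only by the loss of Malat1, a long noncoding RNA of nuclear speckles. The sources used here do not give how the allele was made, or whether 1 embryo or several gave the cells. With 1 array per genotype, nothing here has a replicate check, so no difference carries a p-value or an SD. Precision is limited by this number of arrays.

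Collagens are built from 3 chains wound into a triple helix in the endoplasmic reticulum, after enzymes have hydroxylated their prolines and lysines. Fibrillar collagens (types I, II, III, V, XI, XXIV and XXVII) form the tensile fibres of skin, bone and cartilage, and network collagens (IV, VIII and X) form sheets such as the basement membrane. FACITs, the fibril-associated collagens with interrupted triple helices, sit on the surface of fibres, while type VI makes beaded microfibrils around cells. Fibroblasts are the main source of types I, III, V and VI in connective tissue.

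Collagen genes were lower in the Malat1 knock-out array as a family, and unevenly so. All 3 measured chains of the microfibrillar type VI were 1.76-fold to 1.93-fold lower. Among the fibrillar chains Col1a1 and Col5a3 were 1.93-fold and 1.95-fold lower, although a second Col1a1 probe set was only 1.26-fold lower. The basement membrane chains Col4a1 and Col4a2 differed by only -0.07 and -0.19 log2 units. Each array's median signal served as its floor (5.44 log2 units for the knock-out, 5.39 for the wildtype), and signals at the floor or higher were called measured. By this convention both arrays measured 26 collagen genes, the wildtype array alone measured 1, and 15 were under the floor on both. Of the 26, 20 were lower and 6 higher in the knock-out array (76.9% lower), while of all 11295 genes measured on both arrays 59.8% were lower and 39.2% higher. Past 1.5-fold, 6 were lower and 0 higher (23.1% lower), against 1.61% of all measured genes lower and 0.832% higher. The family was chosen with earlier results of these data known, so such contrasts are not independent support. The median difference of the 26, knock-out minus wildtype, was -0.21 log2 units, beside -0.05 for all measured genes, whose differences had an SD of 0.24. Past 1.3-fold, 7 collagen genes were lower and 1 higher, against 6.77% and 4.02% of all measured genes. None passed 2-fold, which 0.266% of all measured genes did in the lower and 0.0708% in the higher direction. In RNA from a whole culture, fewer cells of a type and less RNA per cell cannot be told apart.

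The share of all genes below 0 depended on how the arrays were scaled, and the collagen count much less. Setting the median difference of measured probe sets to 0, quantile normalization and loess centring left 47.6%, 44.8% and 46.6% of all measured genes lower, while 20, 20 and 21 of the 26 collagen genes were lower. The split past 1.5-fold was 6 lower and 1 higher with the median set to 0, where Col20a1 came to 0.59, and 5 lower and none higher under each of the other 2 scalings, where Col18a1 came to -0.57 and -0.58.

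**Figure D1:**
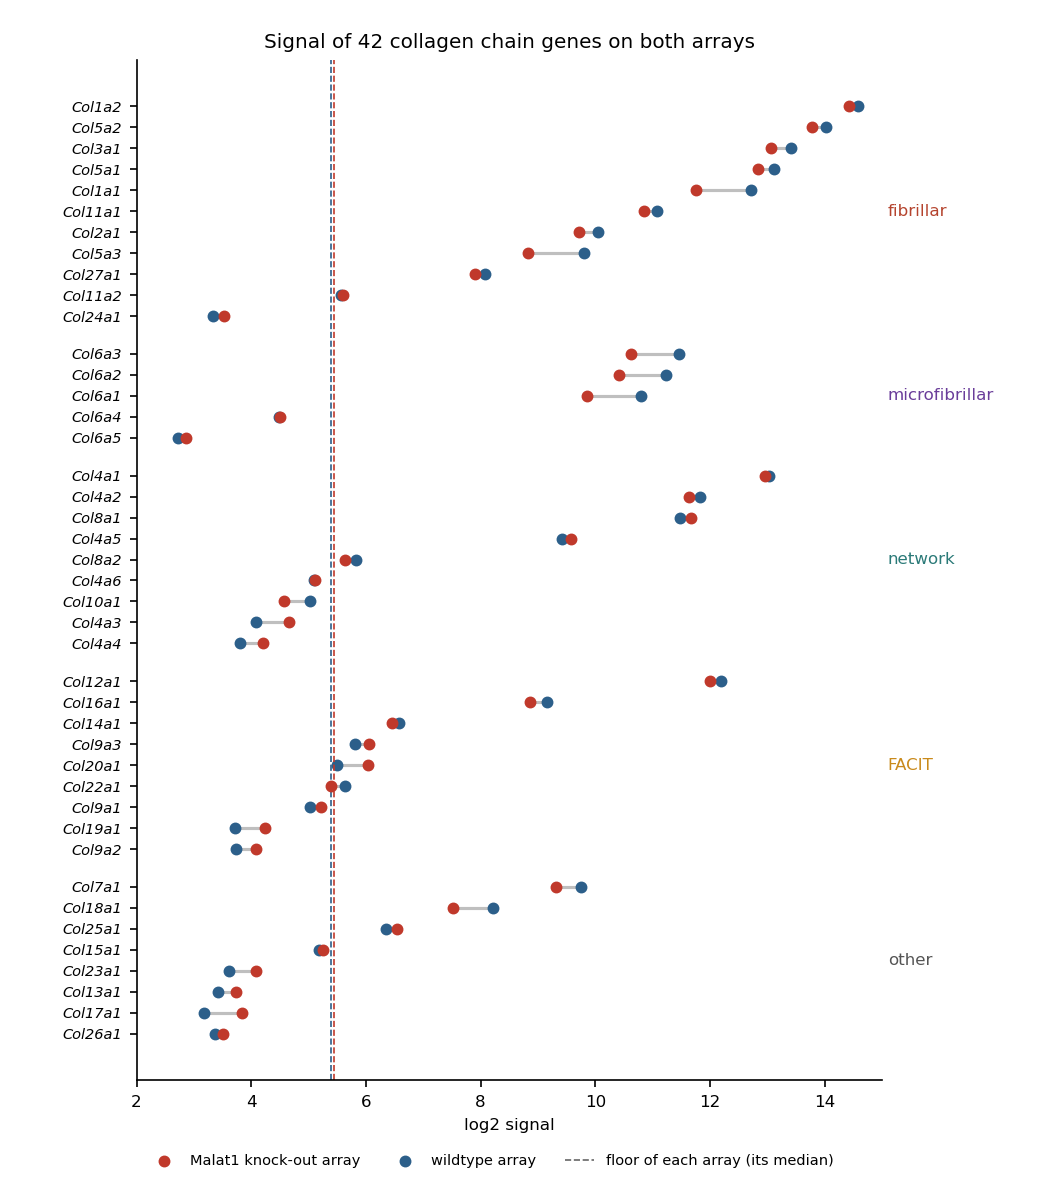
Log2 signal (horizontal axis) of the 42 collagen chain genes, grouped by class, on the Malat1 knock-out array (red) and the wildtype array (blue), with dashed lines at each array's floor. The 3 type VI chains, Col1a1 and Col5a3 show the widest gaps above the floor, and each of the 15 genes left of both lines was measured on neither array; signals of different genes are not on a common scale of abundance.

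The arrays were checked against their labels and for differences other than the genotype. Malat1 read 4.53 in the knock-out and 9.80 in the wildtype, at least 20.6-fold lower, and all 7 of its probe sets were lower. The X-inactivation RNA Xist (11.49 in the knock-out, 4.50 in the wildtype) and the Y-linked Eif2s3y (2.81 and 8.57) separated the arrays in the same way, so sex and genotype cannot be told apart here. The spiked-in hybridization controls read lower on the knock-out array in all 18 of their probe sets, with a median of -0.23, beside the collagen median of -0.21. The part of sex and of array handling in the collagen differences was not tested.

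Type VI collagen had the most uniform difference. Col6a1, Col6a2 and Col6a3 encode the alpha1, alpha2 and alpha3 chains, which assemble in equal numbers. Col6a1 (gene ID 12833) read 9.85 in the knock-out and 10.80 in the wildtype, a difference of -0.95. Col6a2 (12834) read 10.41 in the knock-out and 11.23 in the wildtype, -0.82, and its second probe set read 8.45 and 9.28, -0.83. Col6a3 (12835) read 10.63 in the knock-out and 11.46 in the wildtype, -0.82. The 4 probe sets thus lay within 0.13 log2 units of one another, less than the pooled SD of 0.199 between probe sets of one gene across the array. The remaining type VI genes, Col6a4 (4.51 in the knock-out, 4.49 in the wildtype) and Col6a5 (2.87 and 2.73), which encode chains related to alpha3, were under the floor on both arrays.

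Because the 3 chains had differences of like size, the 250 bases upstream of each gene's start are shown, 5′ to 3′, from RefSeq (GRCm38.p6). Short elements found in many promoters were searched on both strands and would stand in capitals. The GC box was searched as GGGCGG. The search for the TATA box used the letters TATAAA. The CCAAT box was searched by the letters of its name. The capitals in the Col6a2 window are a GC box on the other strand, and no match overlaps another.
Col6a1, chr10:76726045-76726294, minus strand: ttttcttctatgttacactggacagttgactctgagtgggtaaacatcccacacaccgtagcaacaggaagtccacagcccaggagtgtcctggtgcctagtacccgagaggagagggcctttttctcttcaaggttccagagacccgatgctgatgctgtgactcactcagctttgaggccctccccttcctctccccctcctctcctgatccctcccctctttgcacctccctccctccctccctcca
Col6a2, chr10:76623631-76623880, minus strand: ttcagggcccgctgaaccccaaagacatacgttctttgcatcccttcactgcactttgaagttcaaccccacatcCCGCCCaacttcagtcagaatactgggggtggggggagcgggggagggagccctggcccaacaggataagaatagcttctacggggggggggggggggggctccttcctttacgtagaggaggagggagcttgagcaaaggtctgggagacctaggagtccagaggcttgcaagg
Col6a3, chr1:90843972-90844221, minus strand: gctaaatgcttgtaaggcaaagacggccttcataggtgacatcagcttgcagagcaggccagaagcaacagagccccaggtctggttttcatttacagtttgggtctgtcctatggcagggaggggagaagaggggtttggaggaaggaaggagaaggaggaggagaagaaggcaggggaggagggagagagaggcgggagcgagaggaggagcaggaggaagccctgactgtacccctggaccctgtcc
The Col6a2 window held 1 GC box, and none of the 3 motifs was in the Col6a1 or Col6a3 window. Over the 20 measured collagen genes with a promoter in the table, 15 windows held a GC box, 10 a CCAAT box and 2 a TATA box. Over all 33 collagen promoters, measured or not, 20 held a GC box, 12 a CCAAT box and 5 a TATA box. Over all 27025 promoters, which were not limited to measured genes, the shares were 33%, 34.5% and 13%. The windows of the 20 had a median GC content of 60.6%, and those of all promoters 52%. Of the 5 genes past 1.5-fold that have a window, 3 held a GC box and 2 a CCAAT box. A match is a description of the letters and does not show that a factor binds.

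Col6a2 and Col6a1 are next to each other on chromosome 10, with 2 protein-coding genes between Col6a1 and Col18a1, so that 3 of the 6 collagen genes past 1.5-fold lie together. Col18a1, a basement membrane collagen whose cleaved end is endostatin, read 7.52 in the knock-out and 8.22 in the wildtype (-0.69, 1.62-fold lower), and its second probe set read 6.90 and 7.55 (-0.65). Genes around them were read for comparison. Of the other protein-coding genes from 10 before Col6a2 to 10 after Col18a1, both arrays measured 14. Their median was -0.00104 and their range -0.46 to 0.17. None was 1.5-fold lower, a size that 1.61% of all measured genes reached, so none among 14 is near that share. Slc19a1 and Pcbp3, the measured genes between the collagens, differed by 0.09 and 0.01. Col6a3, with a difference of the same size, is on chromosome 1. The part of chromosomal position in these differences was not tested.

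Among fibrillar chains, 9 of 10 measured genes were lower in the knock-out array, beside 59.8% of all measured genes, with a median of -0.27. Type I collagen, the main fibre of skin and bone, is made of alpha1 chains from Col1a1 and alpha2 chains from Col1a2. Col1a1 (gene ID 12842) read 11.76 in the knock-out and 12.71 in the wildtype, -0.95, and its second probe set read 11.74 and 12.07, -0.33. Col1a2 (12843) read 14.43 in the knock-out and 14.58 in the wildtype, -0.15. Its other probe sets read 13.58 and 13.84 (-0.26), and 7.18 and 8.55 (-1.37). Every type I probe set was lower, but the size was not settled, since the probe sets of each chain spread over more than 0.6 log2 units.

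Type V collagen starts the assembly of type I fibres and limits their width. Its minor chain gene Col5a3 (53867) read 8.83 in the knock-out and 9.80 in the wildtype, -0.97, the largest difference among the 26, and its second probe set was under the floor at 3.68 and 3.93. Col5a1 read 12.84 in the knock-out and 13.12 in the wildtype, -0.28, with its other probe sets at -0.45 and -0.89. Col5a2 read 13.78 and 14.03 in the same order, -0.26, with a second probe set at -0.55. Col3a1, the chain of the fine fibres of skin and vessels, read 13.07 in the knock-out and 13.41 in the wildtype, -0.34, and its second probe set was at -0.56. Thus all measured probe sets of types III and V were lower, by 0.26 to 0.97 log2 units.

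The fibrillar chains typical of cartilage were all within 1.5-fold. Col2a1, the chain of type II collagen, read 9.71 in the knock-out and 10.05 in the wildtype, -0.34. Col11a1, which forms thin mixed fibres with it, read 10.85 and 11.07, -0.23, and a second probe set was at -0.15. Col27a1 read 7.91 in the knock-out and 8.07 in the wildtype (-0.16, second probe set -0.35). Col11a2 read 5.60 and 5.57, a difference of 0.03 near the floor that turned to -0.04 after loess centring, and Col24a1 was under the floor (3.52 and 3.34). Cartilage markers outside the family were low on both arrays. Of 11, both arrays measured 2, Sox9, the master regulator of cartilage (6.91 in the knock-out, 7.26 in the wildtype), and Matn4 (6.01 and 5.76). Acan (5.18 in the knock-out, 5.60 in the wildtype) and Comp (4.83 and 5.44), which encode aggrecan and a cartilage matrix protein, passed the floor on the wildtype array alone. Snorc (5.65 in the knock-out, 5.33 in the wildtype) passed it on the knock-out array alone, at least 1.19-fold higher, and Hapln1, Matn1, Matn3, Cnmd, Chad and Epyc were under it on both. The summed linear signal of the 11 was 391 in the knock-out and 423 in the wildtype. Most of the 11 were under the floor on both arrays, so no direction is read from this sum.

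**Figure D2:**
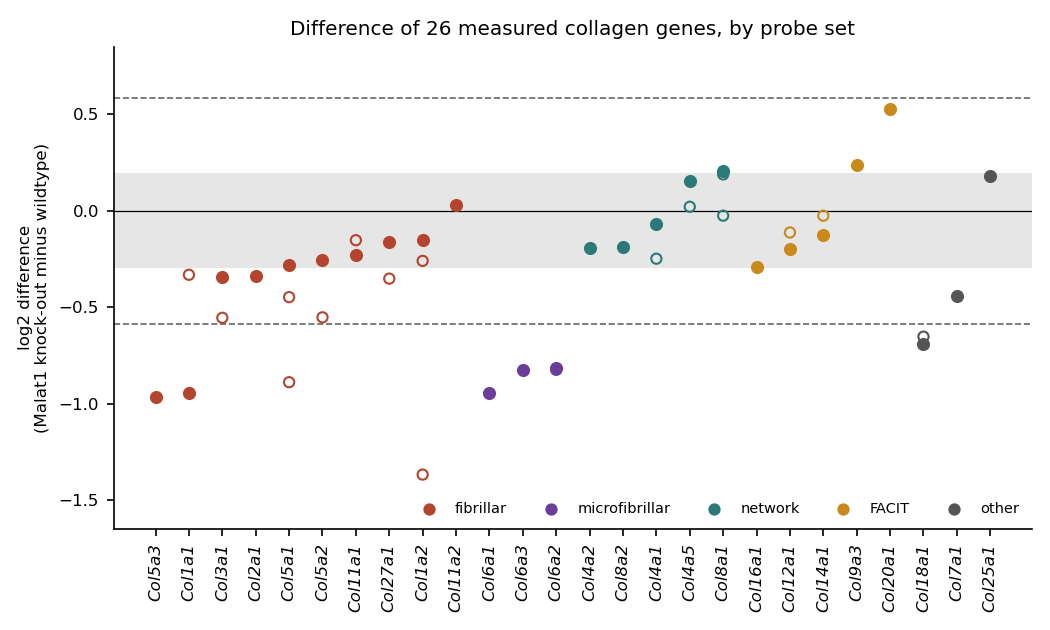
Log2 difference, Malat1 knock-out minus wildtype, of the 26 collagen genes measured on both arrays, coloured by class. Filled points are the probe set that represents the gene, open points its other measured probe sets, the grey band is the median of all measured genes plus and minus 1 SD across genes, and dashed lines mark 1.5-fold; all type VI points lie below the lower line and no point lies above the upper one.

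Several probe sets read the same gene, which allowed a check within the arrays, although probe sets from the same RNA do not count as replicates. Of 43 collagen probe sets measured on both arrays, 35 were lower in the knock-out array and 10 were lower by at least 1.5-fold, against 61.7% and 2.25% of all 19187 measured probe sets with 1 symbol. Of 14 collagen genes with several measured probe sets, 13 had all of one sign. The exception was Col8a1, at 0.20, 0.19 and -0.03. In 9 of the 14, and in 6 of the 8 whose brightest probe set had a mean signal of at least 11, the dimmest probe set had the more negative difference. Across all 4883 genes with several measured probe sets the share was 53.3%, and across the 728 with such a bright probe set it was 61.5%. The median of those 8 was -0.23 by the brightest probe set and -0.44 by the dimmest, beside 0.00 and -0.06 for the 728. Sizes for Col1a2, Col3a1, Col5a1 and Col5a2 therefore depend on the probe set that is read. So does that of Col1a1, but in the other order, at -0.95 by its brightest and -0.33 by its dimmest.

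Network collagens were close to the array as a whole. Of 5 measured chains 3 were lower and 2 higher, near the 59.8% of all measured genes that were lower, and none was past 1.5-fold. The median was -0.07, and its sign was not stable, at 0.04 with the floor at the 75th percentile and 0.02 with no floor. Col4a1 and Col4a2 encode the chains of the common basement membrane collagen and are neighbours on chromosome 8 that are read in opposite directions. Col4a1 read 12.96 in the knock-out and 13.03 in the wildtype, -0.07, with a second probe set at -0.25. Col4a2 read 11.63 and 11.82, -0.19. Col4a5, an X-linked chain of the kidney and eye basement membranes, read 9.57 in the knock-out and 9.42 in the wildtype, 0.16, and its second probe set 7.78 and 7.75, 0.02. The median of 354 measured X-linked genes was -0.02. Col8a1 and Col8a2 encode the short chains of type VIII collagen, found in vessel walls and the cornea. Col8a1 read 11.67 in the knock-out and 11.47 in the wildtype, 0.20, and Col8a2 read 5.64 and 5.83, -0.19. Col4a3, Col4a4, Col4a6 and Col10a1, the last a chain of hypertrophic cartilage, were under the floor.

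FACIT genes went both ways, with 3 of 5 measured chains lower, near the 59.8% of all measured genes. Their median was -0.13, and 0.19 with no floor. Col12a1, which coats type I fibres in tendon and skin, read 12.00 in the knock-out and 12.20 in the wildtype, -0.20, with a second probe set at -0.11. Col16a1 read 8.86 and 9.15, -0.29. Col14a1, a relative of Col12a1, read 6.45 in the knock-out and 6.58 in the wildtype, -0.13, with a second probe set at -0.03. The chains that were higher had signals near the floor. Col20a1 read 6.03 in the knock-out and 5.50 in the wildtype, 0.53, the largest positive difference among the 26, and Col9a3, a chain on cartilage fibres, read 6.05 and 5.81, 0.24. The Col20a1 probe set may also match other transcripts, as its suffix marks. Another Col20a1 probe set read 5.75 in the knock-out and 5.32, under the floor, in the wildtype. Col22a1, a collagen of tissue junctions, was under the floor in the knock-out (5.39) and just above it in the wildtype (5.63), at least 1.15-fold lower.

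Col7a1, Col18a1 and Col25a1 were the measured genes outside these classes. Col7a1, which makes the anchoring fibrils under the epidermis, read 9.31 in the knock-out and 9.75 in the wildtype, -0.44, and has 1 probe set. Col25a1, a membrane-spanning collagen, read 6.54 and 6.36, 0.18. The genes of this group under the floor were Col13a1, Col17a1 and Col23a1, which also span the membrane, and Col15a1 and Col26a1. The 15 collagen genes measured on neither array read 2.87 to 5.26 in the knock-out and 2.73 to 5.18 in the wildtype. All 6299 genes measured on neither array had a median difference of 0.15, so small positive differences were the rule below the floor and no direction is read for these 15.

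**Figure D3:**
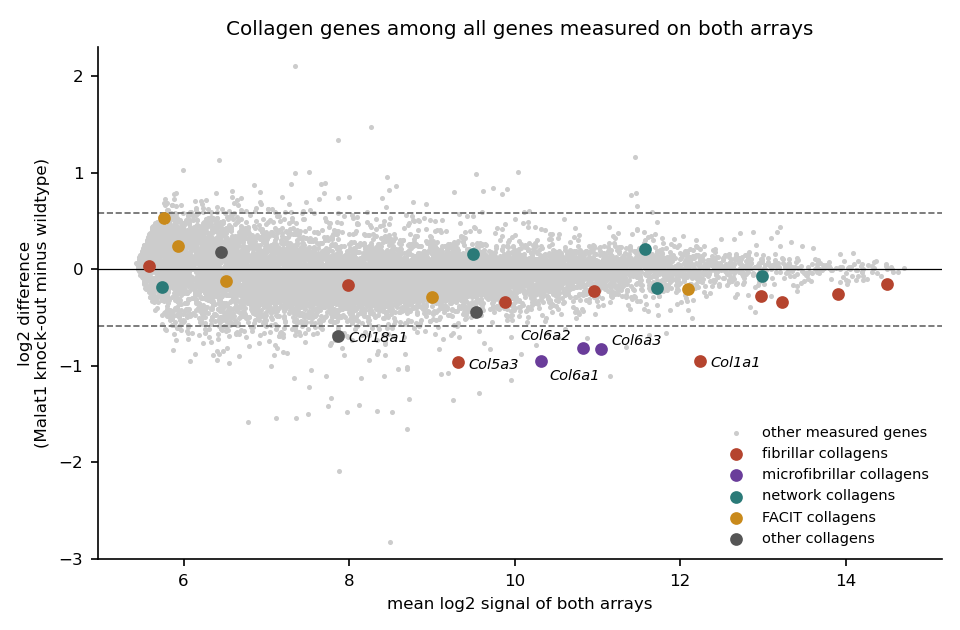
Log2 difference, Malat1 knock-out minus wildtype, against the mean log2 signal of both arrays, for the collagen genes (coloured by class) and all other genes measured on both arrays (grey). Dashed lines mark 1.5-fold, and the 6 named collagen genes lie below the lower one.

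Collagen genes were also set beside genes of similar signal, a choice made after the values were seen. Of 18 collagen genes with a mean signal of at least 9, 16 were lower in the knock-out array and 5 were lower by at least 1.5-fold. The shares among all 4039 genes of such signal were 59.3% and 0.817%. The median was -0.29 for the 18 and -0.03 for all. At a mean signal of at least 11, 9 of 10 collagen genes were lower, all but Col8a1, against 46.4% of 1108 genes, and Col1a1 and Col6a3 were lower by at least 1.5-fold, against 0.542%.

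Genes that make, process, bind and degrade collagen were mostly slightly lower as well. The 4 lists, also chosen with earlier results of these data known, hold 57 names. Of the 42 genes that both arrays measured, 36 were lower in the knock-out array, with a median of -0.21. For all measured genes 59.8% were lower, with a median of -0.05. None of the 42 was past 1.5-fold in either direction, a size reached by 1.61% of all measured genes in the lower and 0.832% in the higher direction. Under the other scalings 32 to 34 of the 42 were lower, against 44.8% to 47.6% of all genes. In the endoplasmic reticulum list, 19 of 20 measured genes were lower, with a median of -0.22. Plod1, a lysyl hydroxylase, differed by -0.46 (7.93 in the knock-out, 8.40 in the wildtype), Creb3l1, a transcription factor that activates Col1a1 in bone cells, by -0.40, and P3h3, of the prolyl 3-hydroxylase family, by -0.34. The collagen chaperone Serpinh1 differed by -0.12 and P4hb, a subunit of prolyl 4-hydroxylase, by -0.09. P3h2 was the higher one, at 0.28.

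Of the genes that cut procollagen and crosslink fibres, 8 of 10 were lower, with a median of -0.19. Loxl3, a lysyl oxidase, differed by -0.41 (10.54 in the knock-out, 10.95 in the wildtype), Bmp1, the protease that removes the C-terminal propeptide, by -0.40 and Loxl4 by -0.33. A second Loxl4 probe set differed by 0.52 the other way. Of receptors and uptake genes, 5 of 7 were lower, with a median of -0.20. That median is the value of Ddr1 at its brightest probe set, while its other probe sets ran from -0.10 to 0.21. Taking each gene's median over its probe sets gave a list median of 0.0390, so the sign was not stable. Ddr2, a receptor tyrosine kinase for fibrillar collagen, differed by -0.37, Antxr2, a receptor for matrix ligands, by 0.27 and Mrc2, an endocytic collagen receptor, by -0.24. Of the collagen-degrading proteases, 4 of 5 were lower, with a median of -0.22. The collagenases Mmp13 and Mmp14 differed by -0.54 (6.29 in the knock-out, 6.84 in the wildtype) and -0.42, with the other Mmp14 probe sets at -0.66 and -0.88, and the gelatinase Mmp9 by 0.46. These counts of 8 of 10, 5 of 7 and 4 of 5 stand beside 59.8% of all measured genes lower. Most measured genes of synthesis and of breakdown were thus lower, by less than 1.5-fold at the representing probe set. P3h2, Tll1, Tgm2 and Mmp9 were higher, at 0.28, 0.25, 0.26 and 0.46.

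**Figure D4:**
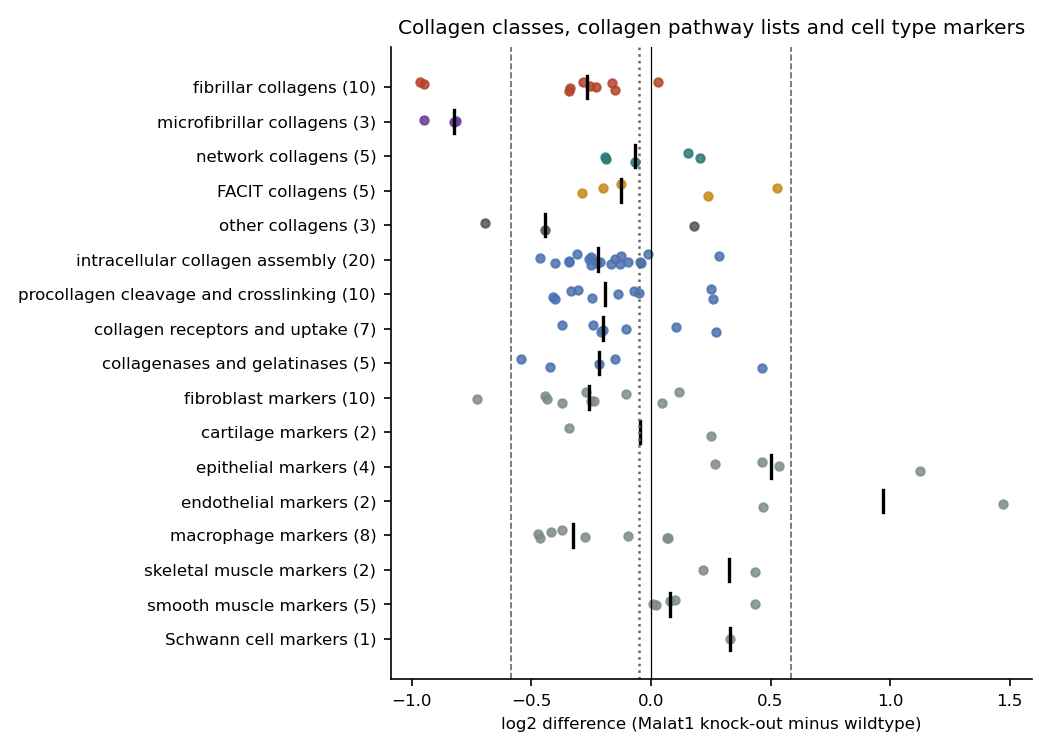
Log2 difference, Malat1 knock-out minus wildtype, of genes measured on both arrays in the 5 collagen classes, 4 collagen pathway lists and the cell type marker lists, with the number of genes in brackets; each point is a gene, placed at random within its row, and the black bar is the median. The dotted line is the median of all measured genes (-0.05) and dashed lines mark 1.5-fold; all type VI points and the fibroblast median lie left of the dotted line, and all epithelial and endothelial points right of it.

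Markers of the cell types that the culture could hold also differed between the arrays. Of 10 fibroblast markers measured on both arrays, 8 were lower in the knock-out array, with a median of -0.26. Of all measured genes 59.8% were lower, with a median of -0.05. The summed linear signal over the list was 52212 in the knock-out and 57152 in the wildtype. Sums here and below run over every list gene on the array, those under the floor included. Pdgfra, a growth factor receptor of fibroblasts, differed by -0.73 (7.47 in the knock-out, 8.20 in the wildtype), S100a4 by -0.44 and Thy1 by -0.43. The higher ones were Lum, at 0.12, and Vim, the filament of all mesenchymal cells, at 0.05. Other Vim probe sets differed by -0.06 and -0.07. Dpt passed the floor on the wildtype array alone.

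Of 10 epithelial markers, 4 were measured on both arrays and all 4 were higher, beside 39.2% of all measured genes. The sums were 912 in the knock-out and 657 in the wildtype. Cldn4, Cldn3 and Krt18 differed by 1.13, 0.54 and 0.47, and Epcam by 0.27. A second Epcam probe set, under the floor on both arrays, differed by -0.38. A second Cldn3 probe set measured on both arrays differed by 0.10. Another, measured on the knock-out array alone, differed by 0.56, and one under the floor on both by -0.10. Krt5 and Krt8 passed the floor on the knock-out array alone, and Cdh1, Krt14, Cldn6 and Cldn7 were under it on both. Of 7 endothelial markers, Emcn and Kdr were measured on both arrays and differed by 1.47 and 0.47, with sums of 706 and 353 in the same order, and Pecam1, Cdh5, Tie1 and Tek were under the floor, with Esam at it (5.37 in the knock-out, 5.41 in the wildtype). All 8 macrophage markers were measured and 6 were lower (sums 3257 in the knock-out, 4000 in the wildtype), beside 59.8% of all measured genes. Aif1 was at -0.47, Lyz2 at -0.46 and Ptprc at -0.42, while Csf1r and Fcer1g were higher, each at 0.07.

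Muscle and bone markers were read in the same way. The 5 smooth muscle markers, which contractile fibroblasts also express, were all higher, beside 39.2% of all measured genes. Their median was 0.08 (sums 52027 in the knock-out, 50027 in the wildtype), with Des at 0.44, Cnn1 at 0.10 and Tagln at 0.08. In skeletal muscle, Des and Acta1 (0.22) were measured and Myod1, Myog, Myh3 and Tnnt3 were under the floor (sums 3470 and 2963). Of the 5 bone markers on the array none was measured on both arrays (sums 95.2 and 77.9), with Sp7 above the floor on the knock-out array alone (5.64, against 5.33 in the wildtype) and Alpl, Ibsp, Dmp1 and Phex under it. Of 3 Schwann cell markers Sox10 was measured, at 0.33, and S100b and Erbb3 were under the floor (sums 146 and 116). Most skeletal muscle, bone and Schwann cell markers were under the floor on both arrays, so no direction is read from their sums. The part of cell composition in the collagen differences was not tested.

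**Figure D5:**
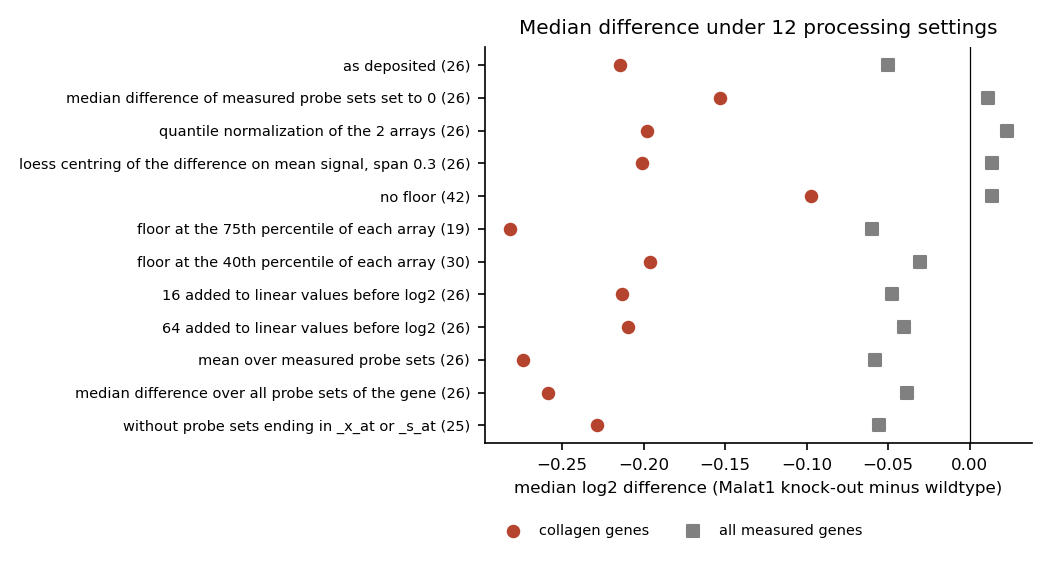
Median log2 difference, Malat1 knock-out minus wildtype, of the measured collagen genes (circles) and of all measured genes (squares) as deposited and under 11 other processing settings, with the number of collagen genes in brackets. The collagen median ran from -0.28 to -0.10 and lay left of the median of all genes in each setting.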

How the data were processed

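Total RNA from 1 Malat1 knock-out and 1 wildtype MEF culture was isolated with Trizol, and 100 ng of it was labelled with biotin by a 3′ in vitro transcription kit and hybridized to Affymetrix Mouse430_2 arrays, per the labels' protocols. The deposited values, 1 for each probe set of an array, were taken as log2 signals from their range (2.09 to 14.71). The sources used here do not give how they were summarized and normalized. The columns have medians of 5.44 (knock-out) and 5.40 (wildtype), and their sorted values differ by up to 0.133.

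Symbols came from the platform's annotation. All 42 collagen gene IDs were found in the RefSeq table (GRCm38.p6) with unchanged symbols. A gene was represented by its 1-symbol probe set with the highest mean. Values were used as deposited, since the median difference of measured probe sets was -0.06, under the limit of 0.1 for recentring. A fixed size of 1.5-fold was used in place of a test, and a gene measured on 1 array has a bound. Of the list genes, 10 of 128 names were not analysed here. Of the collagen genes every measured one is named. Of each pathway list the 3 genes with the largest difference, and of each marker list up to 3 and those under the floor, are named. Some others were chosen after their values were seen (Serpinh1, P4hb, P3h2, Tll1, Tgm2, Ddr1, Epcam, Vim, Lum, Csf1r, Fcer1g and the genes near Col6a1). The members and lists were chosen with earlier results of these data known. Calls were tested on simulated data. The alternatives were 3 scalings, 3 floors, adding 16 or 64 to linear values, 3 ways to represent a gene, and 1.3-fold and 2-fold. Python 3.11.15, pandas 2.3.3 and statsmodels 0.14.6 were used.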

Additional observations from a re-analysis of the deposited data

How the results depend on the processing

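No paired analysis was possible because there is 1 array of each genotype, and no array could be left out. Under the planned settings the collagen median was -0.28 to -0.10, the type VI median -0.82 to -0.76 and the fibrillar median -0.43 to -0.21. The count of lower collagen genes was 17 to 22, out of unlike numbers of genes. It was 17 of 19 with the floor at the 75th percentile, beside 64.9% of all genes. With no floor it was 22 of 42, beside 46.2% of all genes. The count at least 1.5-fold lower was 5 to 7 in the settings that kept 1.5-fold and 0 at 2-fold. The count at least 1.5-fold higher was 1 in place of 0 with the median difference set to 0 and with no floor, and 1 at 1.3-fold. With no floor the FACIT median was 0.19, that of the classes outside the 4 main ones 0.16 and that of collagen receptors 0.0634. The network median was 0.0436 with the floor at the 75th percentile, 0.0215 with no floor and -0.16 with the mean or the median over probe sets. With the floor at the 40th percentile the median outside the 4 main classes was -0.18, and taking each gene's median over its probe sets gave a receptor median of 0.0390. With no floor, genes under it enter the medians by construction. The receptor median of 0.0390 is that of Ddr1 over its probe sets, which ran from -0.20 at the brightest to 0.21. With the mean over measured probe sets Col1a1, Col1a2 and Col5a1 came to -0.64, -0.59 and -0.54. By the median over all probe sets, Col1a1 and Col5a3 came to -0.64 and -0.61, and with 64 added to linear values Col20a1 came to 0.24. In a setting added after seeing the data, the dimmest measured probe set of each gene gave a median of -0.31, with 21 genes lower, 7 of them by at least 1.5-fold, and 0 at least 1.5-fold higher. Signals near the floor limit what can be read for Col20a1, Col9a3, Col11a2, Col8a2 and Col22a1.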
